A study of Arabidopsis thaliana with 20 samples.

Results

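Photorespiration recovers carbon after Rubisco, the enzyme that fixes CO2, has bound O2 instead. The 2-phosphoglycolate so formed is dephosphorylated in the chloroplast, oxidized and aminated to glycine in the peroxisome, and joined into serine in the mitochondrion with loss of CO2 and ammonium. Serine then returns through the peroxisome as glycerate, and a low ratio of CO2 to O2 favours the entry of carbon into this route. The 10 genes described here were chosen by their identifiers as the main enzymes of the route, among 33296 genes in the deposited table. They encode the phosphatase PGLP1, the glycolate oxidases GOX1 and GOX2, the aminotransferases GGT1 and AGT1, the glycine decarboxylase proteins GLDP1, GDCH1 and GLDT, the serine hydroxymethyltransferase SHM1, and the hydroxypyruvate reductase HPR1. All 10 had a row in the table.

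mRNA was sequenced from shoots of Arabidopsis thaliana (Col-0) grown in Petri dishes, in 4 non-aerated (Parafilm-sealed) and 4 aerated libraries, each from the pooled shoots of 10 plants of 1 plate. Both treatments had half-strength Murashige and Skoog agar with 1% sucrose, a cold treatment of 4 days and growth at 22 °C, so that all plants could also take up sugar from the medium. Aerated dishes received an air flow of 0.15 to 0.25 L/min from day 5 after sowing, and by the sample records plants were harvested 15 days after the cold treatment. The study's results give a different day of harvest, within the light period. A further set of 12 libraries (Micropore-sealed, non-aerated and aerated) had no values per library and was not analysed here. Neither the labels nor the methods of the sequencing say whether the plates of a treatment were grown at separate times, so the p values cover only the spread between these plates.

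Values are normalized counts, the reads of a gene divided by the size factor of the library. Between 34330463 and 60255788 reads lay behind the libraries. Aerated library 5 stood apart in that its 10 most abundant genes held 11% of its normalized counts, against 7.42% to 8.99% in the other 7 libraries. Root markers were low, with the sum of 8 of them at 112 to 280 normalized counts in non-aerated and 156 to 421 in aerated libraries, apart from PYK10, a beta-glucosidase, at 11738 to 16323 in non-aerated and 13332 to 17316 in aerated libraries. None of the 9 root markers was at 0 in every library of a treatment. The sum of 5 light-harvesting and photosystem genes, which mark green tissue, was 730736 to 1068755 in non-aerated and 1000058 to 1473178 in aerated libraries. All 5 had log2 fold changes of non-aerated over aerated below 0 (median -0.35). None of the 5 passed limma or edgeR, 2 had an unadjusted limma p under 0.05, and DESeq2 called 2 lower. Of the 9 root markers 7 were tested, with log2 fold changes of -2.47 to 0.17, a median of -0.95 and 5 of 7 below 0. Among them limma called 0, 2 had an unadjusted limma p under 0.05, and edgeR and DESeq2 each called 2 lower. The part of tissue makeup in the values below was not tested.

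GLDP1 was called higher in non-aerated shoots, while the other 8 members tested did not pass. The GLDP1 call held in only 3 of 8 fits with a library left out, and not with no filter beyond 1 read. Changes were tested with limma on log2 of the normalized counts plus 1, over the 20160 genes that reached 10 normalized counts in 4 or more libraries, and Benjamini-Hochberg adjusted p values under 0.05 were called. Of the 10 members, 9 entered the test, and PGLP1 did not. One member, GLDP1, was called higher, 0 were called lower, and 0 reached the fold change of 2 that the study asked of its DEGs. Among all genes tested, 22.4% were called, 12.4% as higher and 10% as lower in non-aerated plants, and 7.88% were called with a fold change of at least 2. At an unadjusted limma p under 0.05, 2 members passed, both in the higher direction, and edgeR and DESeq2 likewise called 0 members lower. The share of all genes at this unadjusted p was not counted, here or for the other lists. It is at least the 22.4% called, so these unadjusted counts are not read as a result about the lists. The treatments overlapped in all 9 members, whereas 27.3% of all genes had no overlap. The median log2 fold change of the 9 members was 0.09, beside a median of 0.00 over all genes tested, with 6 members above 0 and 3 below. In bulk shoots, a lower number of cells of a type and less RNA per cell cannot be told apart.

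**Figure D1:**
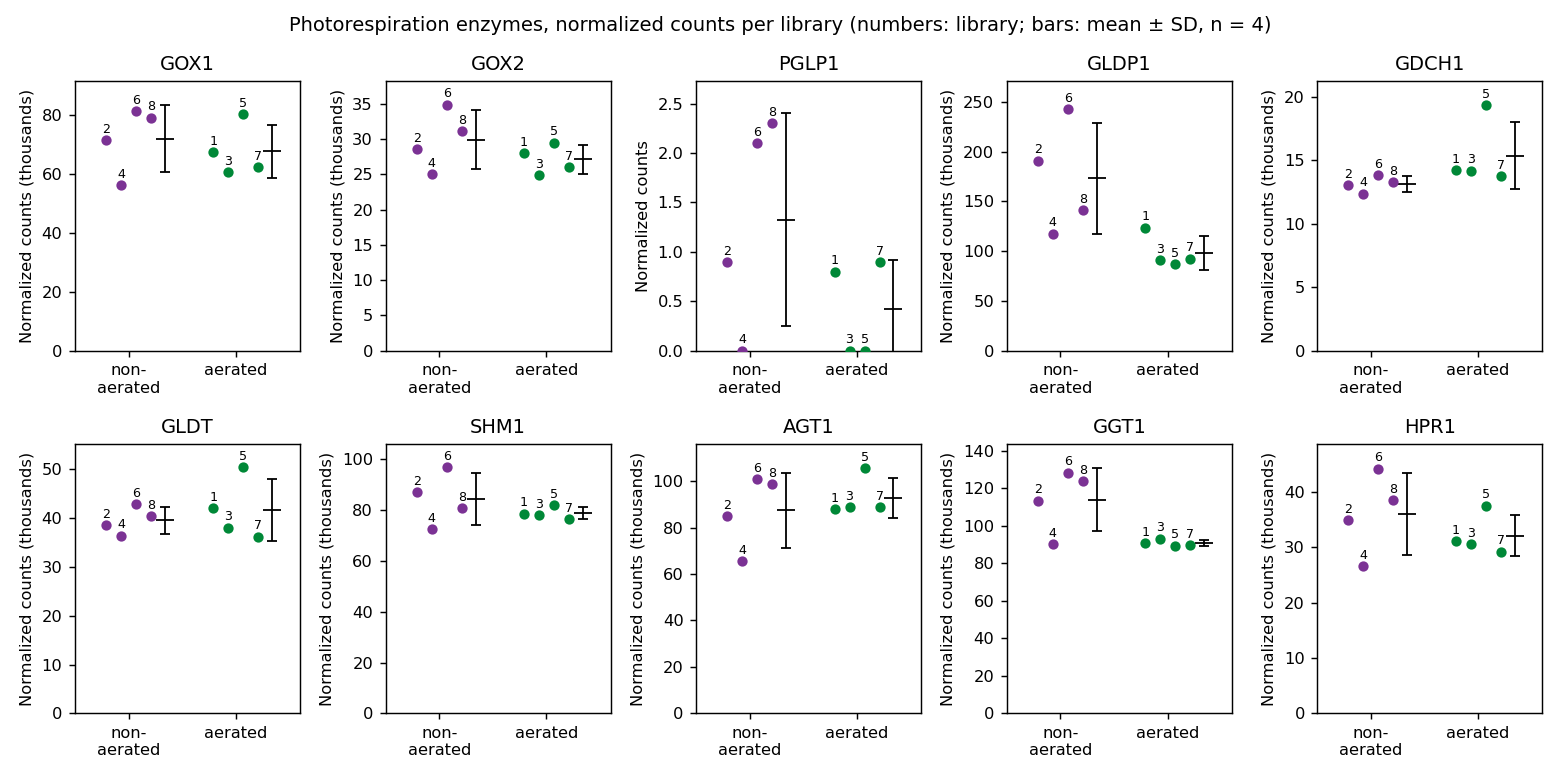
Normalized counts of the 10 photorespiration enzymes in each library, with non-aerated libraries at the left and aerated libraries at the right of each panel, library numbers above the points, and mean ± SD of 4 libraries as bars. GLDP1 reached 242912 in non-aerated library 6, PGLP1 stayed below 3 normalized counts in every library, and in no panel were the treatments fully apart.

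The first enzyme of the route, the phosphoglycolate phosphatase PGLP1 (AT5G36700, chr5:14421182-14424610, minus strand, in the TAIR10.1 assembly), was almost without counts. It had 0.9, 0, 2.1 and 2.3 normalized counts in non-aerated libraries 2, 4, 6 and 8, and 0.8, 0, 0 and 0.9 in aerated libraries 1, 3, 5 and 7, which is 6 reads in non-aerated and 2 in aerated plants. With so few assigned reads no difference between treatments was detectable. A second gene, AT5G36790 (chr5:14480482-14483927, minus strand), starts 59300 bases away and has the same coding sequence, with 0 differences over 1089 bases. The first 120 coding bases, with the start codon in capitals, read the same at chr5:14424311-14424430 for AT5G36700 and at chr5:14483611-14483730 for AT5G36790, and are shown because a read from them fits both genes:
PGLP1: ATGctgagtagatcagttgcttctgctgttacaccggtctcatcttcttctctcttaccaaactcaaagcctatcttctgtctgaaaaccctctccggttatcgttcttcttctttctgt

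Of the stretches of 100 bases, the length of the reads, along the transcript of AT5G36700, 1704 of 1704 (100%) also occur elsewhere in the genome or its transcripts. For AT5G36790 the share was 1565 of 1664 (94.1%), and for the other 9 members it was 0%. AT5G36790 had 62.5 to 87.4 normalized counts in non-aerated and 58.2 to 92.3 in aerated libraries, with a log2 fold change of -0.02 (SE 0.20, limma adjusted p = 0.949). How the counting treated reads that fit several places is not given in the sources used here, so the PGLP1 values are uncertain and no level of its mRNA can be read from either gene.

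The next step, oxidation of glycolate to glyoxylate with release of hydrogen peroxide, is carried out by GOX1 (AT3G14420, chr3:4821391-4824178) and GOX2 (AT3G14415, chr3:4818251-4821013), which lie side by side on the plus strand. GOX1 had 72049 ± 11431 normalized counts in non-aerated and 67708 ± 8971 in aerated plants (SD, n = 4 each). Its log2 fold change was 0.08, with a 95% confidence interval of -0.26 to 0.43 and a limma adjusted p = 0.736. GOX2 had 29899 ± 4145 in non-aerated and 27128 ± 2032 in aerated plants, and changed by 0.13 on the log2 scale (interval -0.14 to 0.41, limma adjusted p = 0.474). The ranges of the treatments overlapped in both genes, and the intervals leave room for changes of up to 1.35-fold in GOX1 and 1.33-fold in GOX2. GOX1 overlaps AT3G14430 on the other strand, which had 121 to 172 normalized counts in non-aerated and 158 to 248 in aerated libraries. The kit did not keep strand, so reads of the overlap cannot be assigned.

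Glyoxylate is aminated to glycine by GGT1, which takes the amino group from glutamate, and by AGT1, which takes it from serine. GGT1 (AT1G23310, chr1:8268385-8272021, minus strand) had 113422, 90219, 128267 and 123923 normalized counts in non-aerated libraries 2, 4, 6 and 8, and 90607, 93138, 89413 and 89739 in aerated libraries 1, 3, 5 and 7. Non-aerated libraries 2, 6 and 8 lay above every aerated library, and library 4 lay among them. Its log2 fold change was 0.32 (SE 0.14), with an interval of 0.00 to 0.63, a limma adjusted p = 0.136 (0.0485 before adjustment). The call depended on the test and on library 4. DESeq2 on the recovered reads called GGT1 higher (adjusted p = 0.0344, with 28.1% of all genes called), limma without non-aerated library 4 did so too (adjusted p = 0.0342), and the other 7 fits with a library left out gave limma adjusted p values of 0.175 to 0.257. GGT1 was not called by edgeR on the recovered reads (adjusted p = 0.0908) or by limma with no filter beyond 1 read (adjusted p = 0.291). AGT1 (AT2G13360, chr2:5538740-5541479, minus strand) had 87460 ± 16217 in non-aerated and 92769 ± 8492 in aerated plants (SD, n = 4 each). Its log2 fold change was -0.10 (interval -0.46 to 0.26, limma adjusted p = 0.693).

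Glycine decarboxylase is a mitochondrial complex of P, H, T and L proteins, of which the P protein removes the carboxyl group of glycine. GLDP1, the gene of its main P protein (AT4G33010, chr4:15926652-15931422, minus strand, 14 exons), had 191180, 117709, 242912 and 141351 normalized counts in non-aerated libraries 2, 4, 6 and 8, and 123828, 91164, 86765 and 92592 in aerated libraries 1, 3, 5 and 7. Non-aerated libraries 2, 6 and 8 exceeded every aerated library, and library 4 exceeded all of them but library 1. GLDP1 averaged 173288 ± 55608 in non-aerated and 98587 ± 17009 in aerated plants (SD, n = 4 each). Its fold change from the limma fit on the log2 scale was 1.71 (log2 0.77, SE 0.23, interval 0.26 to 1.29, limma adjusted p = 0.0377). edgeR (adjusted p = 0.0276, with 22.9% of all genes called) and DESeq2 (adjusted p = 0.0022) on the recovered reads also called it higher. The limma call was lost without non-aerated library 2 (adjusted p = 0.0975) or 6 (0.0745), without aerated library 3 (0.0923), 5 (0.0872) or 7 (0.098), and with no filter beyond 1 read (0.0772), while the log2 fold change stayed between 0.59 and 0.94 over the 8 fits with a library left out. GLDP1 overlaps AT4G33000 on the other strand, at 654 to 1184 normalized counts in non-aerated and 985 to 1212 in aerated libraries.

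The H protein, which carries the aminomethyl group between the other proteins, is encoded by GDCH1 (AT2G35370, chr2:14891041-14892298, plus strand). It had 13133 ± 605 normalized counts in non-aerated and 15367 ± 2652 in aerated plants (SD, n = 4 each), for a log2 change of -0.21 (interval -0.48 to 0.06, limma adjusted p = 0.238). The T protein, which passes the methylene group to tetrahydrofolate, is encoded by GLDT (AT1G11860, chr1:4001113-4003748, plus strand). GLDT had 39525 ± 2719 in non-aerated and 41646 ± 6292 in aerated plants, for a log2 change of -0.07 (interval -0.35 to 0.22, limma adjusted p = 0.748). Of the P, H and T protein genes only GLDP1 passed the test, and the intervals of GDCH1 and GLDT included 0. Whether the 3 genes differ from each other in their change was not tested.

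SHM1 (AT4G37930, chr4:17831731-17835017, minus strand) joins the methylene group to another glycine to form serine. It had 84327 ± 10322 normalized counts in non-aerated and 78743 ± 2371 in aerated plants (SD, n = 4 each), for a log2 change of 0.09 (interval -0.19 to 0.37, limma adjusted p = 0.641). HPR1 (AT1G68010, chr1:25493193-25496053, plus strand) reduces hydroxypyruvate to glycerate in the peroxisome. It had 36023 ± 7370 in non-aerated and 32098 ± 3692 in aerated plants, for a log2 change of 0.15 (interval -0.21 to 0.51, limma adjusted p = 0.545). Among the 8 members tested and not called, the intervals were widest for AGT1 and HPR1 and excluded changes of 2-fold in either direction for all 8.

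**Figure D2:**
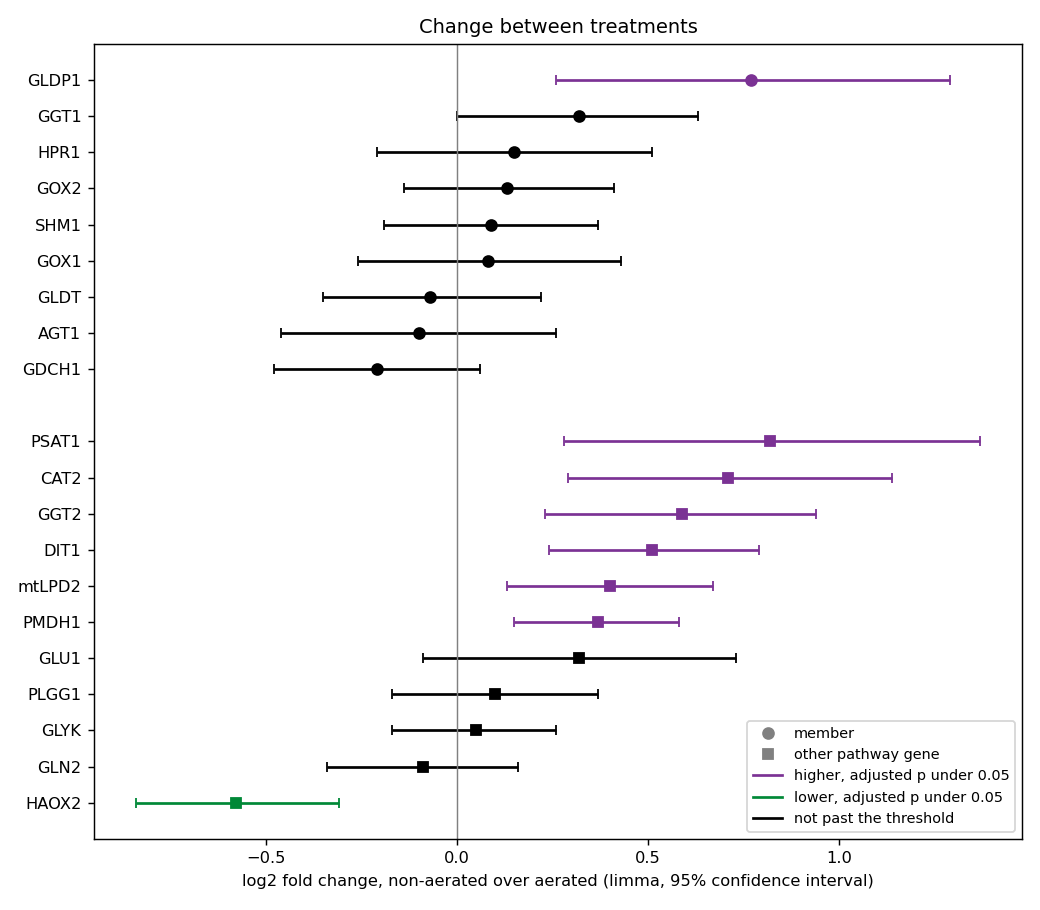
Log2 fold changes of non-aerated over aerated plants with 95% confidence intervals from limma, for the 9 members tested (circles) and for other pathway genes (squares), coloured where the adjusted p was under 0.05. The squares were picked by their call and show every other pathway gene called, plus GLYK, PLGG1, GLN2 and GLU1. Most other pathway genes were not called and are not drawn. GLDP1 is the only member whose interval and adjusted p passed, at 0.77, with GGT1 next at 0.32, and among the squares HAOX2 is the only one called lower, at -0.58.

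Per length of transcript the members formed a higher and a lower tier. In normalized counts per exonic kb, the order in non-aerated plants was GGT1 (51682 ± 7714), GLDP1 (48323 ± 15507), SHM1 (42397 ± 5190), AGT1 (41987 ± 7786) and GOX1 (38081 ± 6042), followed by HPR1 (20125 ± 4117), GLDT (18409 ± 1266), GOX2 (17293 ± 2397) and GDCH1 (13913 ± 641). The ranges of neighbours in this order overlapped everywhere but between GOX1, whose lowest library had 29673, and HPR1, whose highest had 24681. In aerated plants AGT1 was highest (44536 ± 4077), ahead of GGT1 (41145 ± 765), SHM1 (39589 ± 1192), GOX1 (35787 ± 4741) and GLDP1 (27492 ± 4743). GLDP1 thus stood at place 2 in non-aerated and at place 5 in aerated plants. GLDT (19397 ± 2931), HPR1 (17932 ± 2062), GDCH1 (16278 ± 2809) and GOX2 (15690 ± 1175) again made up the lower tier, and GLDP1 at its lowest (24196) lay above GLDT at its highest (23444). All errors are SD of 4 libraries. The 10 members summed to 1.46% ± 0.195 of all normalized counts in non-aerated and 1.24% ± 0.0616 in aerated libraries, and the lowest non-aerated library (1.22%) lay below the highest aerated one (1.33%).

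**Figure D3:**
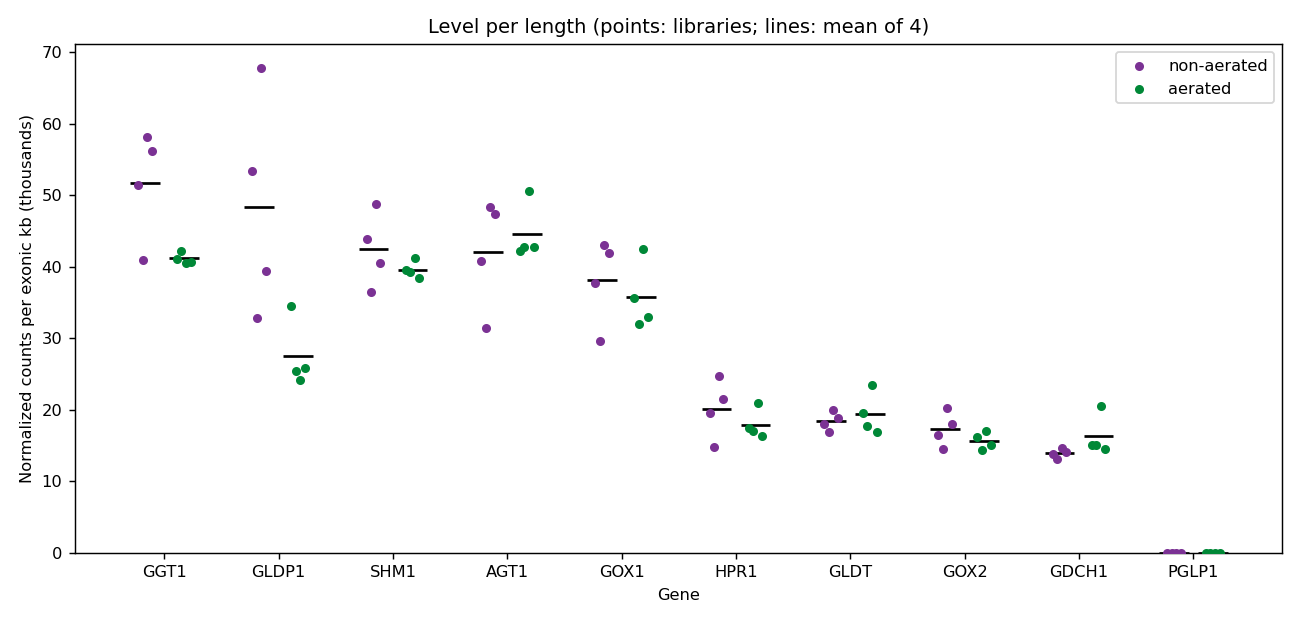
Normalized counts per exonic kilobase of each member, in the order of the non-aerated means, with non-aerated libraries to the left of aerated ones and lines at the mean of 4 libraries. GGT1, GLDP1, SHM1, AGT1 and GOX1 lie above HPR1, GLDT, GOX2 and GDCH1 in both treatments, and PGLP1 lies near 0.

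The members, and the Calvin-Benson genes with them, varied together between the non-aerated plates, and less evenly between the aerated ones. Non-aerated library 6 was the highest of its 4 libraries in 9 of 9 members tested, and library 4 the lowest in 9 of 9. Over all genes tested, library 6 was highest in 23.2% and library 4 lowest in 29.2%. The pattern was not particular to the members, since among 17 Calvin-Benson genes library 6 was highest in 16 and library 4 lowest in 13. Among the 18 other photorespiratory enzymes and paralogs it was weaker, with library 6 highest in 7 and library 4 lowest in 10. The members in library 4 lay at a median of -0.32 from the mean of the non-aerated libraries on the log2 scale (range -0.50 to -0.08), and in library 6 at 0.21 (range 0.08 to 0.54), while the medians over all genes were -0.01 and 0.00. Among aerated libraries, library 5 was the highest in 7 of 9 members (37.6% of all genes), with GLDP1 and GGT1 as the exceptions, where it was the lowest. The lowest aerated library differed between members, and was library 7 in 4, library 3 in 2, library 5 in 2 and library 1 in 1. In 9 of 9 members tested, the log2 range between the libraries of at least 1 treatment was larger than the log2 fold change between treatments. This was not counted over all genes, so it is not shown to be particular to the members. What differed between the plates was not measured, and the members share the scaling of each library.

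**Figure D4:**
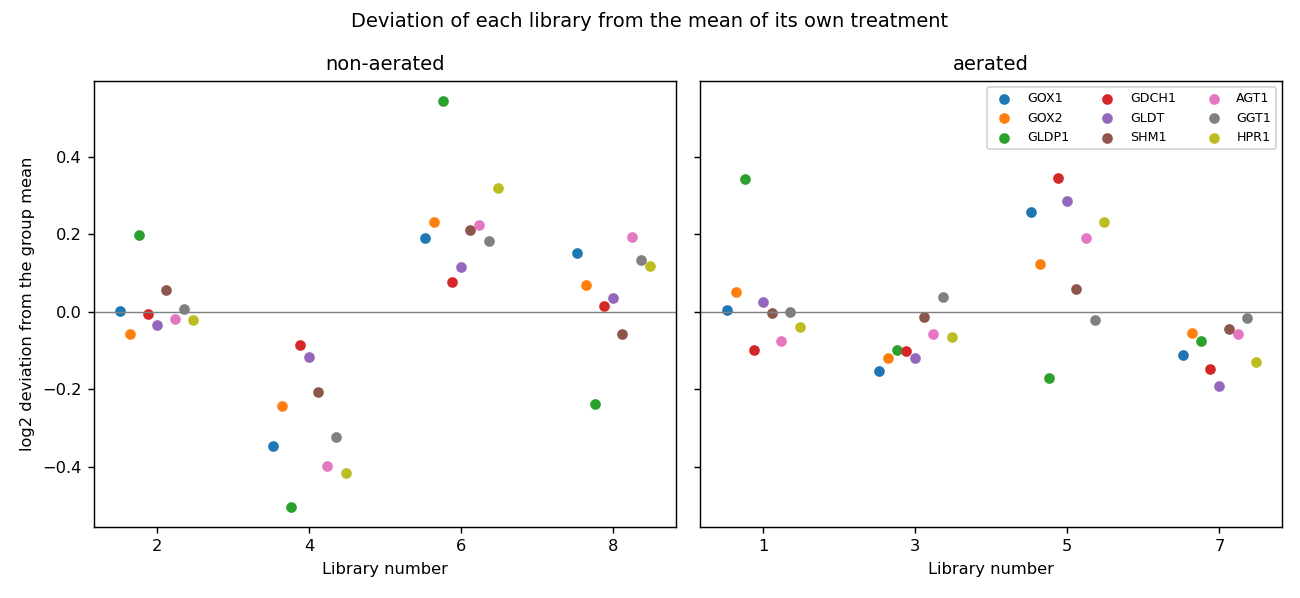
Log2 deviation of each member from the mean of its own treatment, by library, with non-aerated libraries in the left panel and aerated libraries in the right panel, 1 colour per gene. All 9 members lie below 0 in non-aerated library 4 and above 0 in library 6, and in aerated library 5 GLDP1 and GGT1 lie below 0 while the other 7 lie above.

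The mean profile of the 9 members (mean of z-scored log2 values over the 8 libraries) correlated with single members at a Pearson r of 0.405 for GDCH1, 0.576 for GLDP1, 0.706 for GGT1 and up to 0.989 for HPR1. Each member is itself part of this mean, which raises its r, so these values do not compare with those of genes outside the list. Among all other genes tested, those with the closest profile were AT3G12345, an FKBP-type peptidyl-prolyl isomerase (r = 0.985), SNG1 of sinapate ester synthesis (0.976), AT5G65840 (0.974), the fasciclin-like FLA11 (0.973) and AT2G01630 (0.971). These r values describe 8 libraries that share their scaling, and all 5 genes had log2 fold changes between 0.04 and 0.15 with limma adjusted p values of 0.518 or more.

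Several members have a paralog of the same step, and the ratio of both within a library does not depend on its scaling. For 6 pairs, the log2 ratio of normalized counts was compared between treatments with a two-sided exact permutation test, whose smallest p with 4 against 4 libraries is 0.029. GLDP1 over GLDP2, the other P protein gene (AT2G26080), was 2.40, 2.09, 2.25 and 1.93 in non-aerated libraries 2, 4, 6 and 8, and 1.86, 1.68, 1.54 and 1.71 in aerated libraries 1, 3, 5 and 7. The treatments did not overlap, and the mean difference was 0.47 (exact permutation p = 0.029, adjusted over 6 ratios p = 0.17), so the ratio did not pass after adjustment, which 1 ratio alone at the smallest p cannot do here. Per exonic kb, GLDP1 was 5.01 ± 0.705 times as abundant as GLDP2 in non-aerated and 3.6 ± 0.33 times in aerated plants (SD, n = 4 each). GLDP2 itself had a log2 fold change of 0.30 (interval -0.08 to 0.69, limma adjusted p = 0.24). HPR1 over HPR2, the cytosolic reductase, was 3.93 ± 0.32 in non-aerated and 3.57 ± 0.02 in aerated libraries on the log2 scale, a difference of 0.36 (exact permutation p = 0.11, adjusted p = 0.23). GGT1 over GGT2, its paralog, was 5.09 ± 0.11 in non-aerated and 5.36 ± 0.26 in aerated libraries, a difference of -0.27 (exact permutation p = 0.11, adjusted p = 0.23). The ratios GOX1 over GOX2 (-0.05), GDCH1 over GDCH3 (-0.06) and SHM1 over SHM2 (0.03) differed by less than 0.1 on the log2 scale, with exact permutation p values of 0.26 to 0.89. SHM1 was 62.4 ± 9.17 times as abundant per kb as SHM2 in non-aerated and 61.1 ± 10.2 times in aerated plants, while GDCH1 and GDCH3 were nearly equal, at 0.947 ± 0.032 and 0.984 ± 0.0407.

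**Figure D5:**
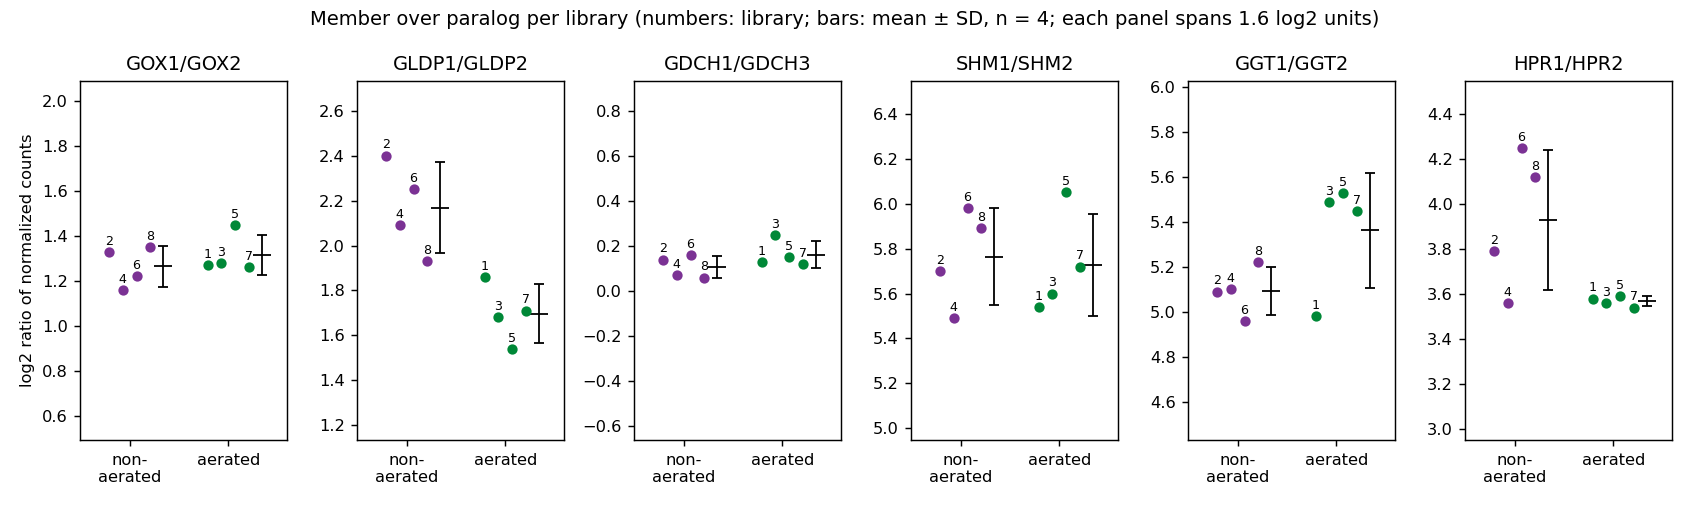
Log2 ratio of normalized counts of each member over its paralog in each library, with non-aerated libraries at the left of each panel, library numbers above the points and mean ± SD of 4 libraries as bars. The treatments do not overlap for GLDP1 over GLDP2 (1.93 to 2.40 in non-aerated, 1.54 to 1.86 in aerated libraries) and overlap for the other 5 ratios.

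Around these members stand 18 other photorespiratory enzymes and paralogs, of which 4 were called higher and 1 lower (median log2 fold change 0.06). Over all genes tested, limma called 12.4% higher and 10% lower. CAT2, the leaf catalase that removes the hydrogen peroxide of glycolate oxidation, had 66500, 45760, 89040 and 69967 normalized counts in non-aerated libraries 2, 4, 6 and 8, and 46742, 36819, 40233 and 37836 in aerated libraries 1, 3, 5 and 7. It was 1.64-fold higher in non-aerated plants (log2 0.71, SE 0.19, limma adjusted p = 0.0238), and its libraries overlapped only through non-aerated library 4 and aerated library 1. Its call was lost without non-aerated library 2 (adjusted p = 0.0552) or without aerated library 3 (0.0668), 5 (0.0516) or 7 (0.0706). GGT2, at 3350 ± 610 in non-aerated and 2231 ± 432 in aerated plants (SD, n = 4 each), was higher by 0.59 on the log2 scale (limma adjusted p = 0.0264), and its call was lost without non-aerated library 2 (0.0569) or 6 (0.0644) or aerated library 3 (0.0691), 5 (0.0692) or 7 (0.077).

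HAOX2 (AT3G14150), a relative of the glycolate oxidases that acts on longer 2-hydroxy acids, was the only one called lower. It had 705.2, 629, 720.7 and 879.2 normalized counts in non-aerated libraries, all below the 1001, 1151, 1154 and 1043 of aerated libraries. Its fold change was 0.67 (log2 -0.58, SE 0.12, limma adjusted p = 0.00702), and it was called in 8 of 8 fits with a library left out. Over all genes tested, the treatments did not overlap in 27.3%. PMDH1, a peroxisomal malate dehydrogenase that also serves fatty acid breakdown, was 1.29-fold higher (limma adjusted p = 0.022), but not without non-aerated library 4 (0.0547) or 6 (0.0597) or aerated library 3 (0.0529) or 7 (0.0633). mtLPD2, an L protein gene that other mitochondrial dehydrogenases share, was 1.32-fold higher (limma adjusted p = 0.0401) and was named after its values were seen. Its call was lost without non-aerated library 2 (0.0981), 4 (0.0943) or 6 (0.0502), or aerated library 1 (0.0657), 5 (0.0675) or 7 (0.0827). GLYK, which closes the cycle in the chloroplast, had 13345 ± 1025 in non-aerated and 12915 ± 873 in aerated plants (SD, n = 4 each), for a log2 change of 0.05 (limma adjusted p = 0.763).

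Of 8 genes for transport and for refixation of the released ammonium, limma, edgeR and DESeq2 each called 1 higher and 0 lower. Their median log2 fold change was 0.13, and 0 were lower at an unadjusted limma p under 0.05. Over all genes tested, limma called 12.4% higher and 10% lower. DIT1, the plastid 2-oxoglutarate/malate translocator that feeds this refixation, had 21050, 20335, 22815 and 18296 normalized counts in non-aerated libraries, all above the 17022, 14214, 12099 and 14795 of aerated libraries. It was 1.43-fold higher (log2 0.51, SE 0.12, limma adjusted p = 0.0154) and was called in 8 of 8 fits with a library left out. The treatments had no overlap in 27.3% of all genes tested. The plastid glutamine synthetase GLN2 had a log2 fold change of -0.09 (limma adjusted p = 0.611), the ferredoxin-dependent glutamate synthase GLU1 one of 0.32 (0.246), and the glycolate/glycerate transporter PLGG1 one of 0.10 (0.597).

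Carbon fixation and the serine route outside photorespiration were counted beside the members. Over all genes tested, limma called 12.4% higher and 10% lower. In the Calvin-Benson cycle, 0 of 17 genes were called in either direction by limma (log2 fold changes -0.38 to 0.36, median 0.02). At an unadjusted limma p under 0.05, 1 passed as higher and 0 as lower, edgeR called 0 and DESeq2 called 1 of the 17 as higher. In the phosphorylated serine pathway, which makes serine in the plastid from 3-phosphoglycerate, 1 of 6 genes was called higher and 0 lower (median 0.24) by limma, edgeR and DESeq2 alike, with 1 lower at an unadjusted limma p under 0.05. This was the aminotransferase PSAT1, with 2274, 2699, 2129 and 1398 normalized counts in non-aerated and 1330, 1288, 734.4 and 1472 in aerated libraries (log2 0.82, SE 0.25, limma adjusted p = 0.0371). Its call was lost without non-aerated library 2 (0.0851), 4 (0.09) or 6 (0.0764) or aerated library 1 (0.0534), 3 (0.0627) or 5 (0.0713).

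The stretches upstream of the members were searched for 3 motifs on both strands, the G-box (CACGTG), the I-box (GATAAG) and the evening element (AAAATATCT), in the 250 bases before the annotated start of each gene in TAIR10.1 (RefSeq). The G-box occurred in 2 of 10 members, GLDP1 (called higher) and GGT1 (not called by limma). Among the promoters of genes with a coding sequence, it occurred in 1781 of 27555 (6.46%). The I-box and the evening element occurred in 0 of 10 members, against 12.3% and 2.36% of these 27555 promoters. GLDP1 and GGT1 are shown with the G-box in capitals, 33 and 82 bases before the start, next to GLDP2, which has no G-box, at chr4:15931423-15931672, chr1:8272022-8272271 and chr2:11114292-11114541, all on the minus strand:
GLDP1: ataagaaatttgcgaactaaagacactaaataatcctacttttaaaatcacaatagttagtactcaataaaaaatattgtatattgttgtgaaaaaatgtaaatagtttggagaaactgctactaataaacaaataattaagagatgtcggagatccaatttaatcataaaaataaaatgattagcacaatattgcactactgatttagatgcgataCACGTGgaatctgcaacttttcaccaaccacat
GGT1: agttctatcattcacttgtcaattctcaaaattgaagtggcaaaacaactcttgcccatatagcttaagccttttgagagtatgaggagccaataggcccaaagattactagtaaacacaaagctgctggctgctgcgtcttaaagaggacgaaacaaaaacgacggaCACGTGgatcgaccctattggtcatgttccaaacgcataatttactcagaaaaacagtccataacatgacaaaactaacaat
GLDP2: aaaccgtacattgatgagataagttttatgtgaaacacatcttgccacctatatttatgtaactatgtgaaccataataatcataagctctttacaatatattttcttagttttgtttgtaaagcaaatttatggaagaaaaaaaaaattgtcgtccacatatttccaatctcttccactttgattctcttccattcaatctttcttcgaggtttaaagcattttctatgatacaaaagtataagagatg

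These matches describe letters only, and no binding was measured. Among the 18 other photorespiratory enzymes and paralogs, 3 promoters (16.7%) held a G-box, those of GGT2 (called higher), HAOX2 (called lower) and GOX3 (not called), while CAT2, PMDH1 and mtLPD2, all called higher, had none. A G-box was also found before 3 of 17 genes (17.6%) of the Calvin-Benson cycle, where 0 genes were called. It was found before 0 of the 8 genes for transport and ammonium refixation, DIT1 (called higher) among them. The same held for 0 of 6 genes of the phosphorylated serine pathway, with PSAT1 (called higher) among them.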

How the data were processed

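The authors mapped single-end reads of 100 bp to TAIR10 with HISAT2 2.0.4, counted them on Araport11 genes with featureCounts 1.5.2 and divided each library by its DESeq2 size factor (submitters' notes and methods). The deposited signal of each library is this normalized count. Read counts were recovered from the steps between low values, and 99.97% to 100% of the values above 0 came out whole, within 0.05 normalized counts of a multiple of the step. The authors also deposited log2 fold changes and adjusted p-value columns of their own comparisons, for the second set nothing else, and none of these was used. limma 3.58.1 (trend, R 4.3.3) was applied to log2(normalized count + 1) in place of a count test because the values are normalized. Alternatives were edgeR 4.0.16 and DESeq2 1.42.0 on the recovered reads (edgeR called 4618 genes), pseudocounts of 0.5 and 10, no filter, other scalings, and leaving out each library. Fold changes are non-aerated over aerated on the log2(value + 1) scale. The fits were tested on simulated data, in which 200 of 20025 genes changed by 1.5-fold or 200 of 20013 by 2-fold. There, limma and edgeR missed changes of 1.5-fold and found most of those of 2-fold. In the real data limma called 22.4% of genes, with PMDH1 at 1.29-fold, mtLPD2 at 1.32-fold and DIT1 at 1.43-fold among them. The simulation, with far fewer changed genes, therefore does not show how small a change could be called here. A gene not called may still have changed, and for the members tested the intervals show by how much.

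Named were the members, their paralogs, in each other list the 2 highest and 2 lowest changes among called genes, single-gene steps, and the 5 closest profiles. The members and lists were chosen with earlier results of these data known. Coordinates and sequences are from RefSeq (TAIR10.1). Exact tests used Python 3.11.15.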

Additional observations from a re-analysis of the deposited data

Results flagged for a closer look

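In 70 groups of 4 libraries examined for members and other named genes and ratios, 8 held a library whose gap to its nearest neighbour made up more of the group's range than Dixon's 95% critical value allows, where chance gives about 1 in 20. All 8 were aerated libraries. Library 5 exceeded the other 3 of its treatment in GDCH1 (19330 normalized counts, the others 13737 to 14211), AGT1 (105481, the others 87777 to 88919), HPR2 (3109, the others 2516 to 2606), FLA11 (705, the others 536 to 552) and the log2 ratio of GOX1 over GOX2 (1.45, the others 1.26 to 1.28). Aerated library 1 lay above the others in GLDP1 (123828, the others 86765 to 92592) and GGT2 (2873, the others 1937 to 2065), and below them in the log2 ratio of GGT1 over GGT2 (4.98, the others 5.45 to 5.53). Without aerated library 1, the log2 fold change of GLDP1 was 0.89 (limma adjusted p = 0.0371).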

How the results depend on the processing

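No paired analysis was possible because the columns carry library numbers and not the replicate numbers of the labels. The count of members called higher was 1, 0 with no filter beyond 1 read, 0 with a fold change of at least 2, 2 by DESeq2 (GLDP1 and GGT1), and 0 to 2 with a library left out, while the count called lower was 0 under every setting run. The other photorespiratory and transport genes called higher numbered 5, 3 with scaling by library totals, 0 with a fold change of at least 2, and 1 to 5 with a library left out. The 1 called lower became 0 with a fold change of at least 2. In the Calvin-Benson cycle, DESeq2 called 1 gene higher, and leaving out a library gave 0 to 1. In the phosphorylated serine pathway, 1 gene called higher became 0 with scaling by library totals and 0 with a fold change of at least 2, and leaving out a library gave 0 to 2 higher and 0 to 1 lower. The 4508 genes called over the whole table became 1588 with a fold change of at least 2, and 2852 to 5065 with a library left out. The median log2 fold change of the members ranged from 0.02 to 0.20 with a library left out and moved by less than the spread between libraries under each setting run. The paralog ratios say nothing of stability, since the smallest exact p, 0.029, gives an adjusted p of 0.17 for 1 ratio among 6. The uncalled log2 fold changes of GLDT (without aerated library 5) and AGT1 (without non-aerated library 4) became 0.03. PGLP1 and its copy are limited by low counts and by stretches of read length that also occur elsewhere (100% and 94.1%).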
